A study of Mus musculus with 4 samples.

Results

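The transcripts of 10 cytokine genes were followed in mouse bone marrow-derived mast cells 2 h after activation: the interleukin genes Il1b, Il3, Il4, Il5, Il6, Il9, Il10 and Il13, the granulocyte-macrophage colony-stimulating factor gene Csf2, and the tumour necrosis factor gene Tnf. Members were the probe sets whose only gene symbol in the platform annotation was one of these names. All 10 genes had 1 probe set each, among 12393 genes with a probe set of a single symbol. Cultures came from the marrow of wild-type (Pac1+/+) or Pac1-/- mice aged 8 to 12 weeks and were kept for 4 to 6 weeks in medium with 5 ng/ml recombinant IL-3. Pac1-/- cells lack the dual-specificity MAP kinase phosphatase Pac1, encoded by Dusp2. The sources used here do not give how the allele was made or how many mice gave marrow to a culture. All cultures, of either genotype, carried IgE against dinitrophenyl, loaded for 18 h at 100 ng/ml, and were exposed for 2 h to DNP-HSA at 20 ng/ml, the antigen of that IgE. There were 2 independent cultures per genotype, numbered replicates 1 and 2, with 1 Affymetrix mouse 430A array per culture. No unstimulated array was analysed here, so a value shows the level after activation and not the induction.

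When antigen crosslinks IgE on the receptor FceRI, mast cells release stored granule contents and start to transcribe cytokine genes. Calcium entry brings NFAT to the nucleus, and the MAP kinase and NF-kappaB pathways act with it on cytokine promoters. Many cytokine mRNAs are short-lived because proteins such as the Zfp36 family bind their AU-rich elements. Pac1 removes phosphate from MAP kinases, and the comparison asks whether transcript levels in activated mast cells depend on it. The culture medium supplied IL-3 as a protein, which an array of mRNA does not read.

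Of the 9 members with an entry in RefSeq's promoter table (GRCm38.p6), 5 lie on chromosome 11. There Il3 and Csf2 are neighbours with no annotated gene between them and starts 17.4 kb apart, and Il4 and Il13 are neighbours likewise, with starts 16 kb apart. Il10 is without an entry. Sequences are given for the members whose log2 values, normalised and with a floor of 16, ranged most over the arrays. By ratio of deposited values Il13, at 5.6 to 72.5, ranged more than Il4, at 54.2 to 394.3. The 250 bases before the start are shown for Il3 (chr11:54267280-54267529, minus strand), Csf2 (chr11:54249900-54250149, minus strand), Il4 (chr11:53618666-53618915, minus strand, the upstream of 2 starts) and Il6 (chr5:30012864-30013113, plus strand). They are written 5′ to 3′, and capitals mark matches, on either strand, to motifs of the transcription factor families NFAT (with Ets), NF-kappaB, AP-1, C/EBP and GATA and to the TATA box, spelled out after the sequences.
Il3: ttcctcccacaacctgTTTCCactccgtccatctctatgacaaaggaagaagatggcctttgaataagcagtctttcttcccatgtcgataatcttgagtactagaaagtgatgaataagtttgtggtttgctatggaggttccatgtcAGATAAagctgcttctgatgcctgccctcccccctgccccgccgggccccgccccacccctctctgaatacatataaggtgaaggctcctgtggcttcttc
Csf2: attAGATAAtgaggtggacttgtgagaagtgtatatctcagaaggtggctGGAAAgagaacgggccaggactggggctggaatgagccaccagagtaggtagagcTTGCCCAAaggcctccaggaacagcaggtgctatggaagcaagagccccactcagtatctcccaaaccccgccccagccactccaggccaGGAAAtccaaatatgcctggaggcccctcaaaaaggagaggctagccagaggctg
Il4: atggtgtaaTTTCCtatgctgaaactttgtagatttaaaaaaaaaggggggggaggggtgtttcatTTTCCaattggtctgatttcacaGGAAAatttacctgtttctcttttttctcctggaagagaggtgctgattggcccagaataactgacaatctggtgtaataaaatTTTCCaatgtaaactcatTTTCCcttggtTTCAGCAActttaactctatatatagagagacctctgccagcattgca
Il6: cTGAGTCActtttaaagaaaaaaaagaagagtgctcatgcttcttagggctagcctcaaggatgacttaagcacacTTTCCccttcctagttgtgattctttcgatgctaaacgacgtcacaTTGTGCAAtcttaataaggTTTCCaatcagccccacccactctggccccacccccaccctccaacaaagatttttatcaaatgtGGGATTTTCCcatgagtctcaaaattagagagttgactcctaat
The core of NFAT and Ets sites, searched as GGAAA, was present in 9 of 9 member promoters and in 55.6% of the 32851 promoters of the table. It matched at 5 places in Il4, 4 in Il13, 3 each in Il1b, Il6, Il9 and Tnf, 2 each in Il5 and Csf2, and 1 in Il3. The NF-kappaB motif, searched as GGGATTTTCC with any base allowed at position 5, was found in Il6 alone of the 9, its last base lying 35 bases before the start, and in 0.356% of all promoters. It overlaps an NFAT match, because it ends in the reverse complement of that core. The AP-1 motif TGANTCA was present in Il6 and Il9 and in 6.75% of all promoters. The C/EBP motif, searched as TTGCNNAA, was present in Il4, Il6 and Csf2 and in 9.56% of all. The GATA factor motif AGATAA was present in Il3, Il13 and Csf2 and in 9.99% of all. The TATA box, searched in its form TATAAA, was present in Il1b, Il13 and Tnf and in 12.4% of all. These matches describe the letters of the window, not binding.

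The 4 arrays were not alike in ways that bear on these values. Deposited intensities reached 100, the minimum named in the series' design text, in 33.9% and 33.6% of probe sets on wild-type replicates 1 and 2, and in 33% and 27.7% on Pac1-/- replicates 1 and 2. That text describes RMA values, while the submitters' notes name MAS5 for the deposited ones. The level of 100 is thus carried over from another measure. The control ratio of beta-actin 3' to 5' signal, which rises where RNA or cDNA is short, was 109 (replicate 1) and 1.58 (replicate 2) for wild-type and 293 and 54.8 for Pac1-/- cultures, and that of GAPDH was 191 on Pac1-/- replicate 2 and at most 1.36 elsewhere. The Y-linked gene Eif2s3y read 221.2 (wild-type) and 287.5 (Pac1-/-) in replicate 1 and 2.1 (wild-type) and 1.0 (Pac1-/-) in replicate 2. Xist, by its highest probe set, went the other way. It read 57 (wild-type) and 41.9 (Pac1-/-) in replicate 1 and 2737.2 (wild-type) and 1116.6 (Pac1-/-) in replicate 2. Both sex-linked signals thus went with the replicate number. The 12 bacterial and phage hybridisation controls were brighter on the Pac1-/- array by 1.65 times in replicate 1 and 1.77 times in replicate 2 in the deposited, scaled values. Of 14 mast cell markers on the array, 12 reached 100 on all 4 arrays, Kit, Fcer1a, Cpa3 and Hdc among them. Ms4a2, for the FceRI beta chain, did not, at 149.8 and 3052.7 in wild-type and 42.2 and 1759.6 in Pac1-/- cells, in replicate order. Nor did Mcpt4, at 85.9 and 145.6 in wild-type and 63.4 and 12.6 in Pac1-/- cells. Tpsb2 reached 100 throughout but read 505.3 on Pac1-/- replicate 2, against 5209.1 to 7433.5 on the other arrays.

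Markers of other cells that could make these cytokines were read as well. Of 13 macrophage markers between 2 and 3 reached 100 on an array. Adgre1 alone of them was at least 100 on all 4 arrays, at 247.3 and 252.8 in wild-type and 232.6 and 199.7 in Pac1-/- cells. Csf1r read 36.7 to 111.5 and Cd14 26.7 to 70.6, but Cd68 read 6416.4 (wild-type) and 4934.2 (Pac1-/-) in replicate 1 and 127.8 (wild-type) and 93.7 (Pac1-/-) in replicate 2. The summed macrophage list was therefore 6987 and 780 in wild-type and 5519 and 532 in Pac1-/- cells, in replicate order. The dendritic cell list, with 8 of 8 markers on the array, summed to 2254 and 288 in wild-type and 1849 and 198 in Pac1-/- cells. Most of its replicate 1 signal was Flt3, which read 1821.6 and 42.9 in wild-type and 1407.7 and 37.8 in Pac1-/- cells. The basophil and eosinophil list, with 5 of 6 markers on the array, summed to 149 and 160 in wild-type and 128 and 127 in Pac1-/- cells, most of it from the basophil protease gene Mcpt8 at 92.7 to 107.4. The T cell list, with 9 of 12 markers on the array, summed to 305 and 182 in wild-type and 200 and 78 in Pac1-/- cells, and Cd3d and Cd3g read at most 5.4. Its member Cd5 was also higher in replicate 1, at 203.2 and 28.1 in wild-type and 117.4 and 16.6 in Pac1-/- cells. Cd3e went the other way, at 20.3 and 70 in wild-type and 11.1 and 21.4 in Pac1-/- cells. None of the markers named here was at 0. Their part in the cytokine values was not tested. In whole cultures fewer cells of a type and less RNA per cell cannot be told apart.

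**Figure D1:**
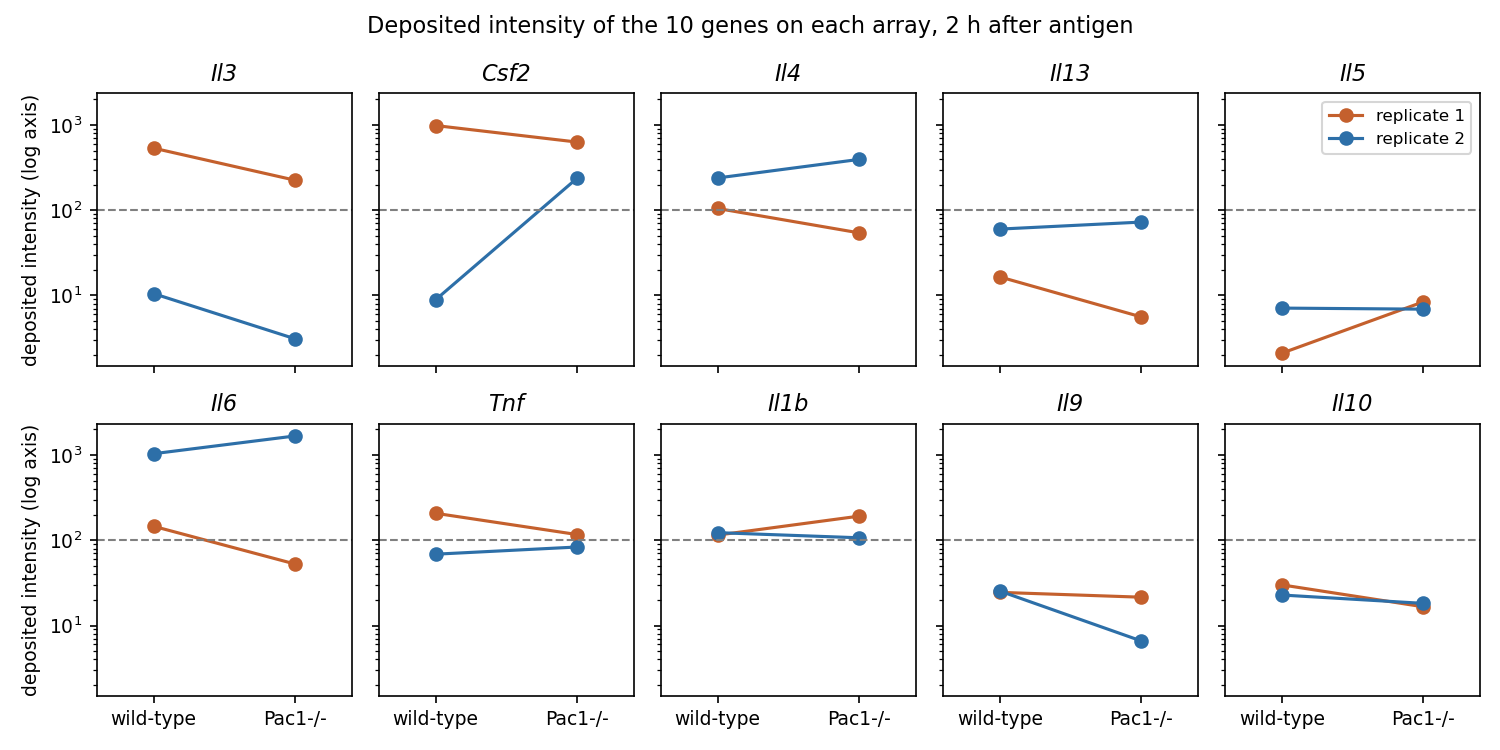
Deposited intensity (vertical, log axis) of each of the 10 genes in wild-type and Pac1-/- cells; a point is 1 array, a line joins the arrays of 1 replicate number (orange 1, blue 2), and the dashed line is an intensity of 100. Il3 and Csf2 lie higher in replicate 1, Il4, Il13 and Il6 higher in replicate 2, and Il5, Il9, Il10 and Il13 stay below 100 on every array.

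Which cytokine transcripts were detected depended on the array. At a deposited intensity of at least 100, 6 of the 10 genes were detected on wild-type replicate 1 and 3 on wild-type replicate 2. On Pac1-/- replicates 1 and 2, 4 and 4 were detected. Of all probe sets 33.9%, 33.6%, 33% and 27.7% were detected on these arrays, in the same order. All but the first count were near these shares. Il1b alone of the 10 was detected on all 4 arrays, while 20.8% of all 22626 probe sets were. Without wild-type replicate 2 the count was 2 genes (Il1b and Csf2 were then detected throughout), and without Pac1-/- replicate 1 it was 3 (Il1b, Il4 and Il6). The share of all probe sets was not computed with an array left out. Il5, Il9, Il10 and Il13 were below 100 on every array, as were 56.9% of all probe sets.

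Il3 and Csf2 encode growth factors of myeloid cells that, with IL-5, signal through receptors sharing the common beta chain Csf2rb. Values in this and the next paragraphs are deposited intensities, replicate 1 first. Il3 read 534.5 and 10.5 in wild-type and 224.8 and 3.1 in Pac1-/- cells. Both replicate 1 arrays were thus detected and both replicate 2 arrays were near the bottom of the scale, in either genotype. Csf2 read 984.1 and 8.9 in wild-type and 629.8 and 236.8 in Pac1-/- cells. Wild-type replicate 2 stood apart as the only array on which Csf2 was not detected. Il5, whose product drives eosinophil growth, read 2.1 and 7.1 in wild-type and 8.4 and 6.9 in Pac1-/- cells, below the detection level on all arrays.

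Il4, Il13 and Il9 encode cytokines of type 2 immunity: IL-4 directs B cells to IgE and T cells to the type 2 fate, IL-13 acts on epithelium and smooth muscle, and IL-9 promotes mast cell growth. Il4 read 104.7 and 238.9 in wild-type and 54.2 and 394.3 in Pac1-/- cells. It was higher on both replicate 2 arrays than on both replicate 1 arrays, and the genotypes overlapped. Il13 showed the same order at a lower level, with 16.5 and 60.0 in wild-type and 5.6 and 72.5 in Pac1-/- cells. Its values were below 100 throughout, so no size is given to them. Il9 read 24.5 and 25.4 in wild-type and 21.5 and 6.6 in Pac1-/- cells. The deposited Il9 values of the Pac1-/- arrays were both below the wild-type ones, in a range that was not detected.

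Il6, Tnf and Il1b encode inflammatory cytokines. Il6, which drives the acute phase response and B cell maturation, read 146.0 and 1036.9 in wild-type and 52.7 and 1674.5 in Pac1-/- cells. The Pac1-/- cultures held both the lowest and the highest of these values. Tnf, a vessel-activating cytokine that mast cells can also store in granules, read 207.4 and 68.7 in wild-type and 116.8 and 83.4 in Pac1-/- cells. It was detected on the replicate 1 arrays and not on the replicate 2 arrays, and the Pac1-/- values lay between the wild-type ones. Il1b, made as a precursor that caspase-1 cleaves, read 115.1 and 122.9 in wild-type and 192.0 and 107.0 in Pac1-/- cells. All arrays lay between 107.0 and 192.0. Il10, an inhibitory cytokine, read 30 and 22.8 in wild-type and 16.6 and 18.2 in Pac1-/- cells. Its deposited Pac1-/- values, like those of Il9, were below the wild-type ones, again short of detection.

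For comparisons the arrays were quantile normalised, a floor of 16 was applied and values were put on the log2 scale, so a log2 difference of 1 is a doubling and differences that involve values near 16 depend on that floor. A probe set was tested when its mean normalised intensity was at least 100. This left 6 members (Il1b, Il3, Il4, Il6, Csf2 and Tnf) among 7770 probe sets. Il3, Il4, Il6, Csf2 and Tnf passed through the arrays on which they were high, so the 6 do not stand for the 10.

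Several members differed between the replicate numbers in both genotypes. Replicate 2 minus replicate 1, in log2 units, was -5.12 in wild-type and -3.74 in Pac1-/- cells for Il3, and 3.0 and 4.81 for Il6. Il3 and Il6 were the 2 of 6 tested members that differed by at least 2 log2 units, in the same direction, in both genotypes. Of all tested probe sets 11.5% did so. The same 2 met this rule under each of the 4 scalings tried. Both had passed the intensity minimum through the arrays on which they were high, so the count describes these 6 and not the list. Csf2 differed by -5.99 in wild-type but -1.36 in Pac1-/- cells, and Il4 by 1.32 and 2.89. The sizes for Il3, and that of Csf2 in wild-type cells, depend on the floor of 16, which the replicate 2 values had reached. Tnf differed by -1.75 in wild-type cells and by 0.01 in Pac1-/- cells, and Il1b by 0.10 and -0.43. The deposited values of Il13, below 100 throughout, were higher on both replicate 2 arrays, as were those of its neighbour Il4, while those of the neighbours Il3 and Csf2 were lower there. The median over the 6 tested members was -0.82 in wild-type and -0.21 in Pac1-/- cells, against 0.06 and 0.02 over all tested probe sets. Over the 10 genes, which include 4 undetected ones partly at the floor, it was 0.05 and 0.01. The labels name the replicate number only as a number, and the macrophage marker Cd68 (-5.99 and -5.55), the dendritic cell marker Flt3 (-5.76 and -4.64), the FceRI beta chain gene Ms4a2 (4.52 and 5.16) and Eif2s3y moved with it. Their part in the cytokine differences was not tested.

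**Figure D2:**
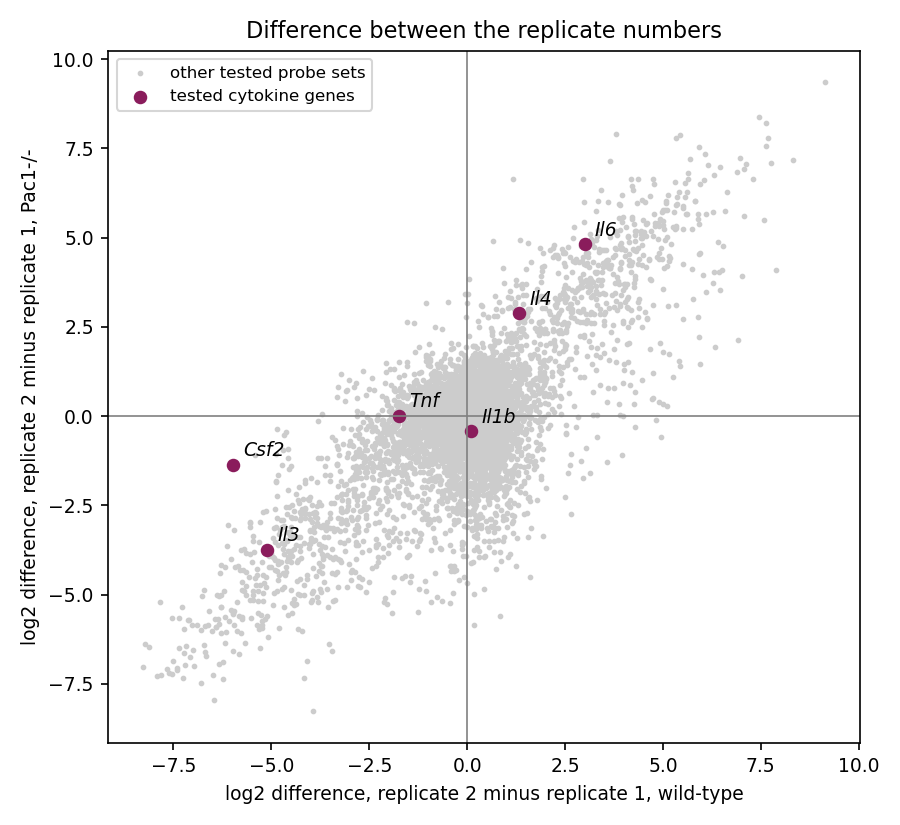
Log2 difference of replicate 2 minus replicate 1 in wild-type (horizontal) and Pac1-/- cells (vertical); grey points are all tested probe sets and purple points the 6 tested cytokine genes. Il3 and Csf2 lie at the lower left, Il6 and Il4 at the upper right, and Il1b near the origin.

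The second comparison was Pac1-/- against wild-type within each replicate number. In replicate 1, 5 of the 6 tested members were lower on the Pac1-/- array: Il6 by -1.44, Il3 by -1.38, Tnf by -0.91, Il4 by -0.85 and Csf2 by -0.67 log2 units, while Il1b was higher by 0.78. Of all tested probe sets 49% were lower in that pair. In replicate 2 the signs were otherwise, with Csf2 at 3.97, Tnf at 0.86, Il4 at 0.71, Il6 at 0.37 and Il1b at 0.24, and Il3 at 0 because both arrays were at the floor. The size for Csf2 depends on the floor too, which its wild-type array had reached. Of all tested probe sets 55.1% were higher in that pair. Il4, Il6, Csf2 and Tnf, 4 of 6 tested members, were thus lower in Pac1-/- cells in replicate 1 and higher in replicate 2. This combination was found in 20.8% of all tested probe sets. Over all 10 genes, undetected ones included, the count was 5. The 4 tested ones had passed the intensity minimum through the arrays on which they were high. The same 4 changed sign in this way in the values as deposited and after median centring (18.6% and 17.8% of all tested). When arrays were scaled to the hybridisation controls only Csf2 did (15.2%), with Il4 at -0.10, Il6 at -0.13 and Tnf at -0.54 in replicate 2. With 1 array per genotype in each number, these differences have no replicate check and the change of sign was not tested.

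**Figure D3:**
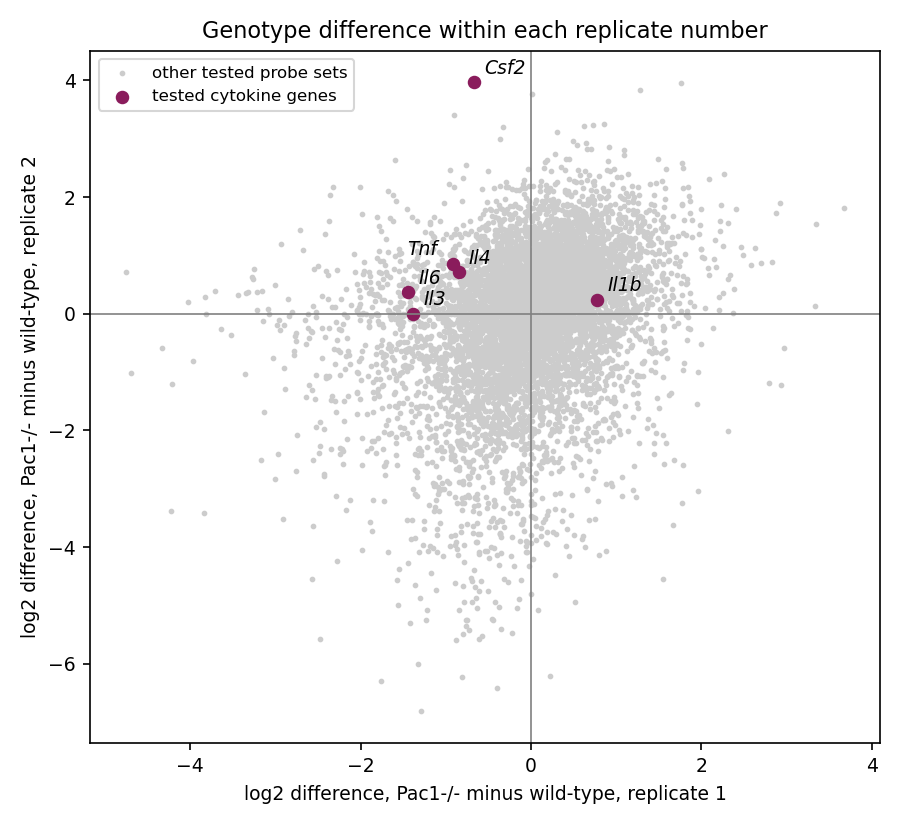
Log2 difference, Pac1-/- minus wild-type, in replicate 1 (horizontal) and replicate 2 (vertical); grey points are all tested probe sets and purple points the 6 tested cytokine genes. Il4, Il6, Csf2 and Tnf lie in the upper left, Il3 on the horizontal line because both its replicate 2 values are at the floor, and Il1b at the upper right.

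Across the 4 arrays none of the members passed the test of genotype. By limma with Benjamini-Hochberg adjustment over all 7770 probe sets, 0 of 6 tested members and 0% of all probe sets had an adjusted p under 0.05. At an unadjusted p under 0.05 there were 0 of 6 members and 3.38% of all probe sets. Pac1-/- cells had lower values for 4 of the 6 and higher values for 2, while 3663 of all 7770 tested probe sets were lower. The median log2 difference was -0.05 over the 6, against a median of 0.06 over all tested probe sets. Scaling to the hybridisation controls put these medians at -0.94 and -0.76, and centring on each array's median put them at 0.43 and 0.69.

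For Csf2 the mean log2 intensity was 7.0 ± 4.24 in wild-type and 8.65 ± 0.96 in Pac1-/- cells (SD, n = 2 each), a difference of 1.65 ± 2.28 (SE) with a 95% interval of -4.89 to 8.19 and a limma adjusted p of 0.907. It rested on wild-type replicate 2, without which it was -1.35, and on the floor that this array had reached, since a floor of 64 put it at 0.65. Il3 differed by -0.69 ± 2.35 (interval -7.43 to 6.06, adjusted p = 0.979), and leaving out wild-type replicate 1 or Pac1-/- replicate 2 gave 1.87 or 1.18. Intervals of this width hold both a large loss and a large gain of either transcript. These intervals, like those below, come from a fit by genotype only, which counts differences between the replicate numbers as error. For Il3 those were -5.12 in wild-type and -3.74 in Pac1-/- cells, while the genotypes differed by -1.38 in replicate 1 and 0, at the floor, in replicate 2.

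Il6 differed by -0.54 ± 2.11 (SE; interval -6.59 to 5.51, limma adjusted p = 0.982), with 8.61 ± 2.12 in wild-type and 8.08 ± 3.40 in Pac1-/- cells (SD, n = 2). Il4 differed by -0.07 ± 1.22 (interval -3.56 to 3.41, adjusted p = 0.995). Without wild-type replicate 2 these were 0.96 and 0.59, and without Pac1-/- replicate 1 they were 1.87 and 1.37. Tnf was at -0.02 ± 0.73 (interval -2.11 to 2.06, adjusted p = 0.996), and at 0.85 without wild-type replicate 1. The direction of these differences was therefore set by which arrays were included. A fit without 1 array also sets different replicate numbers against each other.

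Il1b had the narrowest interval of the 6. Its mean log2 intensity was 6.77 ± 0.07 in wild-type and 7.28 ± 0.30 in Pac1-/- cells (SD, n = 2), a difference of 0.51 ± 0.38 (SE; interval -0.57 to 1.59, limma adjusted p = 0.866). It was the 1 of 6 tested members whose genotypes did not overlap, against 37.7% of all tested probe sets. In the values as deposited the genotypes overlapped, with a difference of 0.27, and scaling to the hybridisation controls turned it to -0.51. Over all alternatives in which they were tested, the lowest adjusted p of a member was 0.519, for Csf2.

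**Figure D4:**
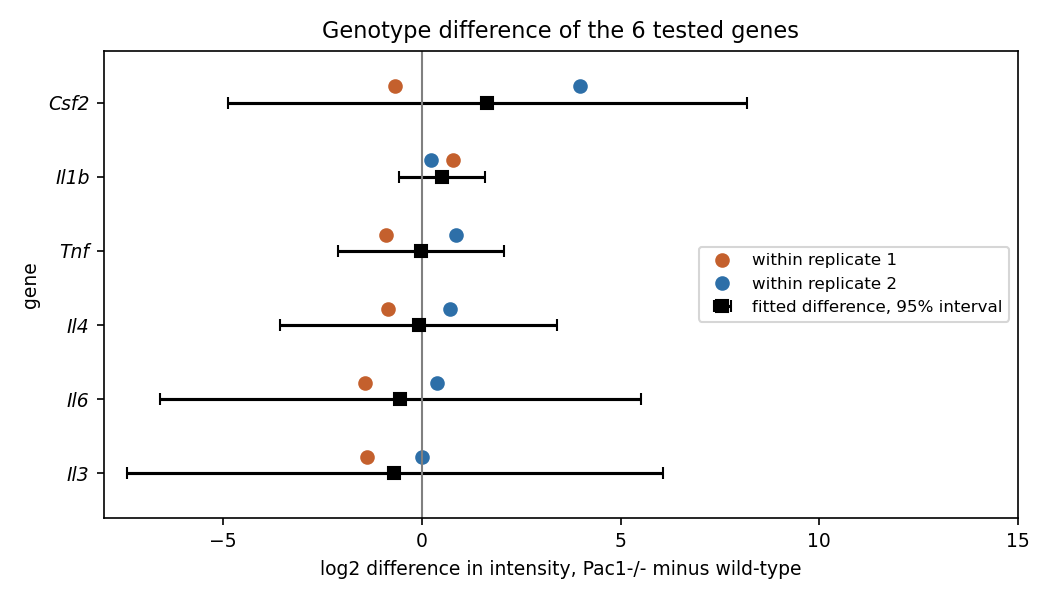
Fitted log2 difference, Pac1-/- minus wild-type, of the 6 tested genes (squares) with 95% intervals from limma (n = 2 arrays per genotype), and the differences within replicate 1 (orange) and replicate 2 (blue). Every interval includes 0, from -0.57 to 1.59 for Il1b to -7.43 to 6.06 for Il3.

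The genes that receive, transcribe, degrade or process these cytokines were read from 5 lists, none of which had a gene past the adjusted test. Of 20 receptor chains, 18 were on the array and 6 were tested. Pac1-/- cells had 3 of the tested ones higher and 3 lower, with a median log2 difference of 0.02. The IL-3 receptor beta chain Csf2rb2 differed by 0.38 ± 0.39 (SE; limma adjusted p = 0.878) and was bright on all arrays, at 4620.2 and 4135.7 in wild-type and 6088 and 6234 in Pac1-/- cells. The common beta chain Csf2rb, at -1.43 ± 1.55, read 2337.8 and 2464.1 in wild-type and 3636.6 and 212.2 in Pac1-/- cells. The last value came from the array with the high GAPDH ratio, on which Csf2rb2 was at its highest. A link to that ratio was not tested. The IL-4 receptor alpha chain Il4ra was at -0.63 ± 0.69.

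Of 40 transcription factor genes known to act on cytokine genes, 38 were on the array. Tested were 21, 8 higher and 13 lower, with a median of -0.44. Gata2, needed for mast cell identity, differed by 0.06 ± 0.37 (SE), the early response factor Egr1 by 0.32 ± 0.46 and the AP-1 subunit Jund by -0.51 ± 0.40. Runx1, at -2.44, and Ikzf1, at -3.8, were past the unadjusted threshold and not the adjusted one (limma adjusted p = 0.866 for each). Of all tested probe sets 3.38% were past the unadjusted threshold. Of 16 genes for mRNA decay, 12 were on the array and 8 were tested, 6 higher and 2 lower, with a median of 0.84. The poly(A)-binding protein gene Pabpc1 was at -0.25 ± 0.36, the AU-rich element binder Zfp36l2 at 0.35 ± 0.36 and the deadenylase subunit Cnot7 at 1.03 ± 0.57. Tial1 (1.26), Zfp36l1 (1.3) and Rc3h2 (1.1) were past the unadjusted threshold and not the adjusted one (limma adjusted p = 0.866 for each).

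Of 11 genes for the maturation and release of IL-1beta and TNF, 9 were on the array. All 9 were tested, 7 higher and 2 lower, with a median of 0.20. Vamp3 was at 0.33 ± 0.35 (SE), the protease Furin at 0.43 ± 0.39 and Stx3 at 0.08 ± 0.49. Adam17, the protease that sheds TNF from the cell surface, was at 1.2 and past the unadjusted threshold only (limma adjusted p = 0.866). Of 36 other cytokine genes 29 were on the array and 7 were tested, 1 higher and 6 lower, with a median of -0.57. The stem cell factor gene Kitl differed by -0.80 ± 2.99, Tgfb1 by -3.24 ± 1.14 and Csf1 by -0.57 ± 0.48. Kitl showed the replicate pattern of Il3, with 2993.7 and 67.3 in wild-type and 1739.4 and 20.8 in Pac1-/- cells. These list medians stood beside a median of 0.06 for all tested probe sets, and 3.38% of those were past the unadjusted threshold. Of all 7770 tested probe sets 3663 were lower in Pac1-/- cells. The median of all tested moved to 0.69 with median centring and to -0.76 with scaling to the hybridisation controls. The list medians and their counts of higher and lower genes are for quantile normalised values and were not recomputed under those scalings.

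**Figure D5:**
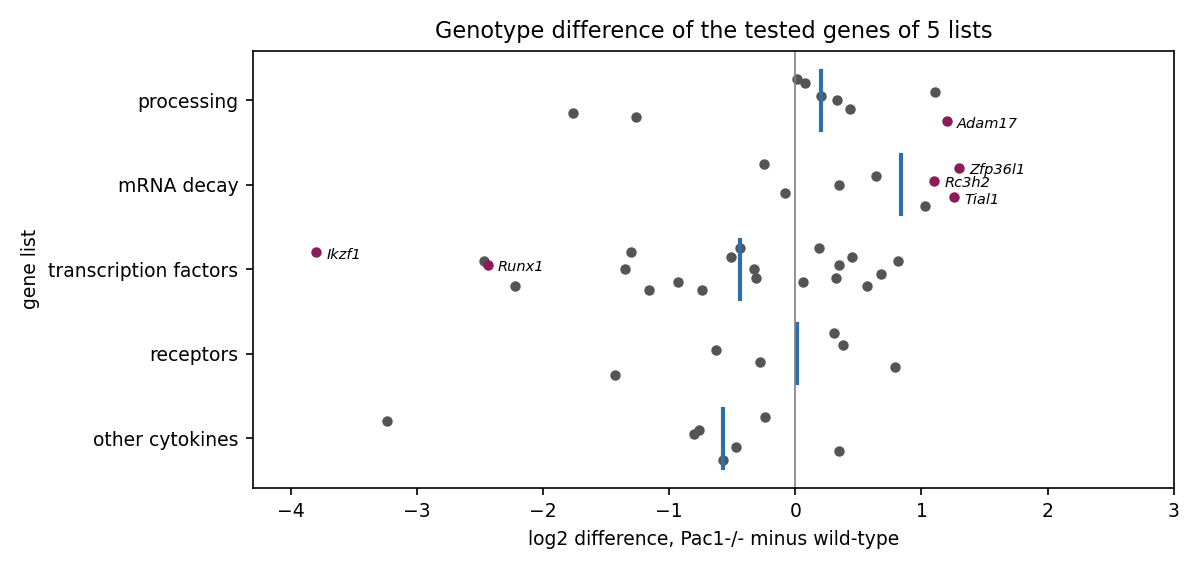
Log2 difference, Pac1-/- minus wild-type, of each tested gene (points) of the 5 lists, with the list median as a blue bar; named purple points had an unadjusted p under 0.05 and no gene an adjusted one. In the quantile normalised values, the only scaling for which they were computed, medians run from -0.57 for other cytokines to 0.84 for mRNA decay.

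The genes whose profile over the 4 arrays lay closest to a member were sought among 4992 other tested genes, by the root mean square distance of centred log2 intensities. The rule asked for members detected on all 4 arrays that vary by at least 1 log2 unit, which 0 members met, so the 6 tested members were used, a choice made after their values were seen. Closest to Il3 were Nf2 (0.03 log2 units), Glb1l (0.09) and Bbs9 (0.12), a likeness that rests on the replicate 1 arrays because both replicate 2 values of Il3 were at the floor. Closest to Il6 were Tmem167 (0.12), Crtap (0.15) and Atg3 (0.18), and closest to Il4 were Mrpl21 (0.11), Ube2a (0.11) and Sdhd (0.13). For Tnf they were Kif2a (0.07), Rpl37 (0.09) and Traf5 (0.11), and for Il1b Lamp1 (0.03), Tpd52l2 (0.04) and Sec61a1 (0.04). Csf2 had no neighbour as close, with Atxn7l1 at 0.30, Ell2 at 0.48 and Slc39a8 at 0.67. Its wild-type replicate 2 value was at the floor. With 4 arrays such likeness is a description of these arrays.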

How the data were processed

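Total RNA of 4 mast cell cultures (500 to 1000 ng each, amplified for small samples, over 98% of cells positive for Kit and FceRI, per the labels' protocols) was hybridised to 1 array each. The authors deposited 1 table of intensities on the linear scale, for which the submitters' processing notes name MAS5; each array's mean, trimmed by 2% at either end, was 150.06 to 150.08. The series' design text describes RMA values tested with Limma 1.3.12, not used here. Of 22690 probe sets 64 controls were left out; 20380 of the others have 1 gene symbol, 691 several and 1555 none. Arrays were quantile normalised, with a floor of 16 and log2. Probe sets with a mean of at least 100 were tested in R 4.3.3 with limma 3.58.1. The fit (eBayes, genotype only, two-sided, Benjamini-Hochberg threshold 0.05) had 2 residual and 1.7 prior degrees of freedom. Its code was checked on simulated data with noise independent between arrays. Recovery was required only at noise well below the spread of these arrays, so the check does not give the power here. Figures used matplotlib 3.10.9. With 2 arrays per genotype no exact permutation p below 0.3333 is possible, and none is given. The number of arrays limits the precision. In lists a gene is its brightest probe set. The members, lists and tests were chosen with earlier results of these data known. All 10 members are named; of other lists, the up to 3 tested genes of highest mean intensity, and, by name after their values were seen, those past the unadjusted threshold and the markers given. Alternatives were the values as deposited, median centring, other intensity minimums, a floor of 64, an intensity trend, a block for the replicate number, omission of each array, averaging probe sets and, added after the data were seen, scaling to the hybridisation controls.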

Additional observations from a re-analysis of the deposited data

How the results depend on the processing

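No member, no gene of the 5 lists and no other probe set passed limma's adjusted threshold under any alternative that kept all 4 arrays. At an unadjusted p under 0.05 in limma there were 263 of 7770 tested probe sets. With no intensity minimum there were 1762 of 22626, and with a minimum of 200 there were 110 of 4969. The replicate number as a block gave 899 of 7770, averaged probe sets 114 of 4303, and scaling to the hybridisation controls 747 of 8041. Because the numbers tested differ, these counts cannot be compared without them. In this balanced layout a replicate block cannot change a member's difference, only its error, and 0 probe sets were called with it. Same-numbered arrays deviated together (r = 0.751 across probe sets, 2 pairs), but the labels do not say that a number marks a shared source. Directions turned with median centring for Il4 (0.51), Il6 (0.24) and Tnf (0.35), with a floor of 64 for Il4 (0.08; Csf2 was then at 0.65), and with hybridisation control scaling for Il1b (-0.51); the cause was not tested. With an array left out the differences ran from -3.25 to 1.87 for Il3, -1.52 to 1.37 for Il4, -2.94 to 1.87 for Il6, -1.35 to 4.65 for Csf2 and -0.90 to 0.85 for Tnf. The number of members detected on all arrays was 4 at an intensity of 50, 0 at 200 and 1 to 3 with an array left out. The shares of all probe sets were not computed for these settings. The median difference between the replicate numbers was 0 in wild-type cells with a floor of 64 and 0.09 with control scaling, and in Pac1-/- cells -0.21 as deposited and 0.12 with median centring.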
